A study of Mus musculus with 4 samples.

Results

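Potassium channel subunit genes were taken as the protein-coding genes in the deposited count table whose symbol starts with Kcn. There were 93 such genes among 17887 protein-coding genes and 29224 genes in all, and each was placed in 1 of 21 subfamilies by its symbol. RNA came from cortical cells of mice at P5, enriched for astrocytes with magnetic beads carrying an antibody to GLAST (ACSA-1), the glutamate transporter encoded by Slc1a3, and was sequenced on an Illumina instrument. The control group, Ezh2 f/f, had 2 libraries from mice with floxed Ezh2 alleles and no Cre, and these are called the control libraries below. The study used C57BL/6J and ICR mice, and which of them gave these libraries was not stated. The Ezh2 cKO group had 2 libraries from mice with the same floxed alleles and Aldh1l1-iCre, a Cre recombinase expressed from the promoter of the astrocyte gene Aldh1l1. Deletion requires that this promoter is active in a cell, or was active in a cell from which it descends. The comparison asked how loss of Ezh2, the methyltransferase of Polycomb repressive complex 2 that places H3K27me3, changed RNA levels in these cells. The labels do not say whether libraries were separate or pooled animals, so the p-values measure only the spread between these samples, which may be technical.

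Potassium channels let potassium ions leave or enter the cell and so set the resting potential and the shape and rate of action potentials. Pore-forming subunits include the voltage-gated families (Kcna to Kcnd, Kcnh, Kcnq), the inward rectifiers (Kcnj), the leak or tandem-pore channels (Kcnk) and channels gated by intracellular calcium or sodium (Kcnma, Kcnn, Kcnt), while silent subunits (Kcnf, Kcng, Kcns, Kcnv) form channels only together with Kcnb subunits, and auxiliary subunits (Kcnab, Kcne, Kcnip, Kcnmb) change trafficking and gating. In the brain, astrocytes are known for inward rectifiers that take up potassium released by active neurons, and neurons for a wide range of voltage-gated channels.

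Total counts were 17522152 and 16273308 in the control libraries and 17330230 and 16678309 in Ezh2 cKO. Ezh2 itself had 434 and 327 counts in the control libraries against 211 and 164 in Ezh2 cKO, so the targeted gene was lower but still counted in both Ezh2 cKO libraries (log2 fold change -1.11, SE 0.16, edgeR adjusted p = 3.26e-05). The groups differed over much of the transcriptome, and 68.4% of the 16793 genes tested passed the threshold, an adjusted p under 0.05, in one direction or the other.

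Several marker lists of the cells such an isolate can hold also differed between the groups. Among all genes tested, 34.7% were higher in Ezh2 cKO and 33.6% lower, and shares near these do not set a list apart. Of the 12 astrocyte markers, 10 were higher in Ezh2 cKO and 0 lower, and their summed level came to 869 and 883 CPM (counts relative to library size after TMM adjustment) in Ezh2 f/f and 3530 and 3210 CPM in Ezh2 cKO. Aldh1l1 (log2 fold change -0.15) and Sox9 (-0.06) were the astrocyte markers that were not called, while Slc1a3, the sorted antigen, rose by 1.59. Of 12 pan-neuron markers 11 were higher and 1 lower, with 6610 and 6980 CPM in Ezh2 f/f and 8750 and 8620 CPM in Ezh2 cKO. The excitatory neuron list had 2 genes higher and 4 lower of 8, and its sum was 1280 and 1150 CPM against 3980 and 3710 CPM, with most of the Ezh2 cKO sum from Slc17a7 and Camk2a. Inhibitory interneuron markers (3 higher and 4 lower of 10) summed to 772 and 695 CPM against 668 and 660 CPM. RNA of neurons was thus plentiful in all 4 libraries of this astrocyte isolate. All 8 oligodendrocyte markers were higher (86.7 and 102 CPM against 887 and 761 CPM), as were all 6 oligodendrocyte precursor markers (183 and 184 CPM against 603 and 533 CPM) and all 10 microglial markers (109 and 111 CPM against 340 and 288 CPM). Endothelial genes (3 higher and 1 lower of 8) summed to 242 and 236 CPM against 278 and 237 CPM, and mural genes (4 higher and 1 lower of 8) to 235 and 246 CPM against 412 and 360 CPM. Of the 8 neural progenitor markers 7 were lower (222 and 249 CPM against 116 and 115 CPM). Choroid plexus and ependymal markers were lower for 5 of the 6 tested, with 413 and 800 CPM in Ezh2 f/f and 19.0 and 17.7 CPM in Ezh2 cKO. Ttr alone made up 370 and 738 CPM of the Ezh2 f/f sums, and Kl was higher (log2 fold change 3.05). No gene in these lists was at 0 in every library, and Mobp, an oligodendrocyte gene, was at 0 in Ezh2 f/f replicate 1. The part of these differences in the values below was not tested, and in bulk RNA fewer cells of a type and less RNA per cell cannot be told apart.

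**Figure D1:**
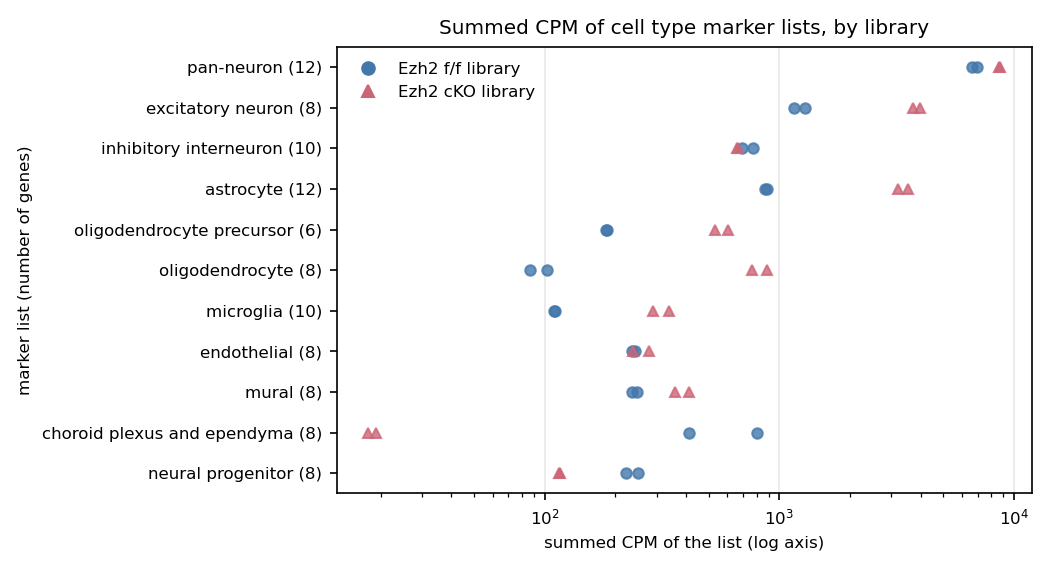
Summed CPM (log axis) of each cell type marker list in the 2 Ezh2 f/f libraries (circles) and the 2 Ezh2 cKO libraries (triangles). Astrocyte, oligodendrocyte, oligodendrocyte precursor and microglial lists lay higher in both Ezh2 cKO libraries, and so did the pan-neuron, excitatory neuron and mural lists. The neural progenitor and inhibitory interneuron lists lay lower, and the choroid plexus and ependyma list fell from 413 and 800 CPM to 19.0 and 17.7 CPM.

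Most potassium channel subunit genes that could be tested had more RNA in Ezh2 cKO than in Ezh2 f/f. Of the 93 genes, 78 passed edgeR's filter on low counts, and 53 of these were higher (67.9%) and 12 lower (15.4%) in Ezh2 cKO. Over all genes tested, 34.7% were higher and 33.6% lower. At least a 2-fold change was seen in 40 genes that were higher and 6 that were lower, where the shares of all tested genes were 19% and 14%. The median log2 fold change was 1.01 over the 78 genes and 0.02 over all genes tested. For each of the 65 called genes the CPM ranges of the groups did not overlap, and this was also so for 11 of the 13 genes that were not called. The share of all tested genes with separate ranges was not computed, so these counts add no support to the calls. The other 15 genes (Kcna3, Kcna7, Kcna10, Kcne1, Kcne3, Kcng3, Kcnj1, Kcnj13, Kcnj15, Kcnk7, Kcnk15, Kcnk18, Kcnmb3, Kcnn4 and Kcnv2) were too low to be tested, 7 of them with no more than 3 counts in any library.

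Per unit of length, the RNA of the family more than doubled. The summed FPKM (counts scaled to gene length and library size) of all 93 genes was 298 and 305 in the control libraries against 682 and 674 in Ezh2 cKO. Their summed CPM, which is TMM-adjusted and not scaled to length, was 1900 and 1960 against 3750 and 3650, slightly under a 2-fold rise. A mean of at least 10 FPKM was reached by 8 genes in Ezh2 f/f and by 19 in Ezh2 cKO. The order of the genes also changed, and 6 of the 12 most abundant genes in each group were the same. In Ezh2 f/f, Kcnj4 (mean FPKM 14.8), Kcnip2 (14.6) and Kcnab2 (13.3) were among the most abundant genes, and the libraries of Kcnj4 and Kcnip2 overlapped. In Ezh2 cKO the highest mean FPKM was that of Kcnip2 (53.6), followed by Kcnj4 (50.7), Kcnh3 (38.1), Kcnip3 (35.4) and Kcnj9 (31.2), where Kcnip3 overlapped both Kcnh3 and Kcnj9.

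By role, 38 of the 56 pore-forming genes tested were higher and 8 lower (median log2 fold change 0.98). Silent subunits had 7 higher and 0 lower of 8 tested (median 2.05), and their summed FPKM was 15.3 and 14.9 in the control libraries against 63.9 and 68.7 in Ezh2 cKO. Auxiliary subunits, with the regulator Kcnrg counted among them, had 8 higher and 4 lower of 14 tested (median 0.70). Over all genes tested, 34.7% were higher and 33.6% lower, which also applies to the subfamily counts below. The auxiliary share that was lower, 28.6%, was near that of all genes. Only the Kcnd, Kcne and Kcnrg subfamilies had a negative median among the 21 subfamilies. Whether roles or subfamilies differed from each other was not tested.

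**Figure D2:**
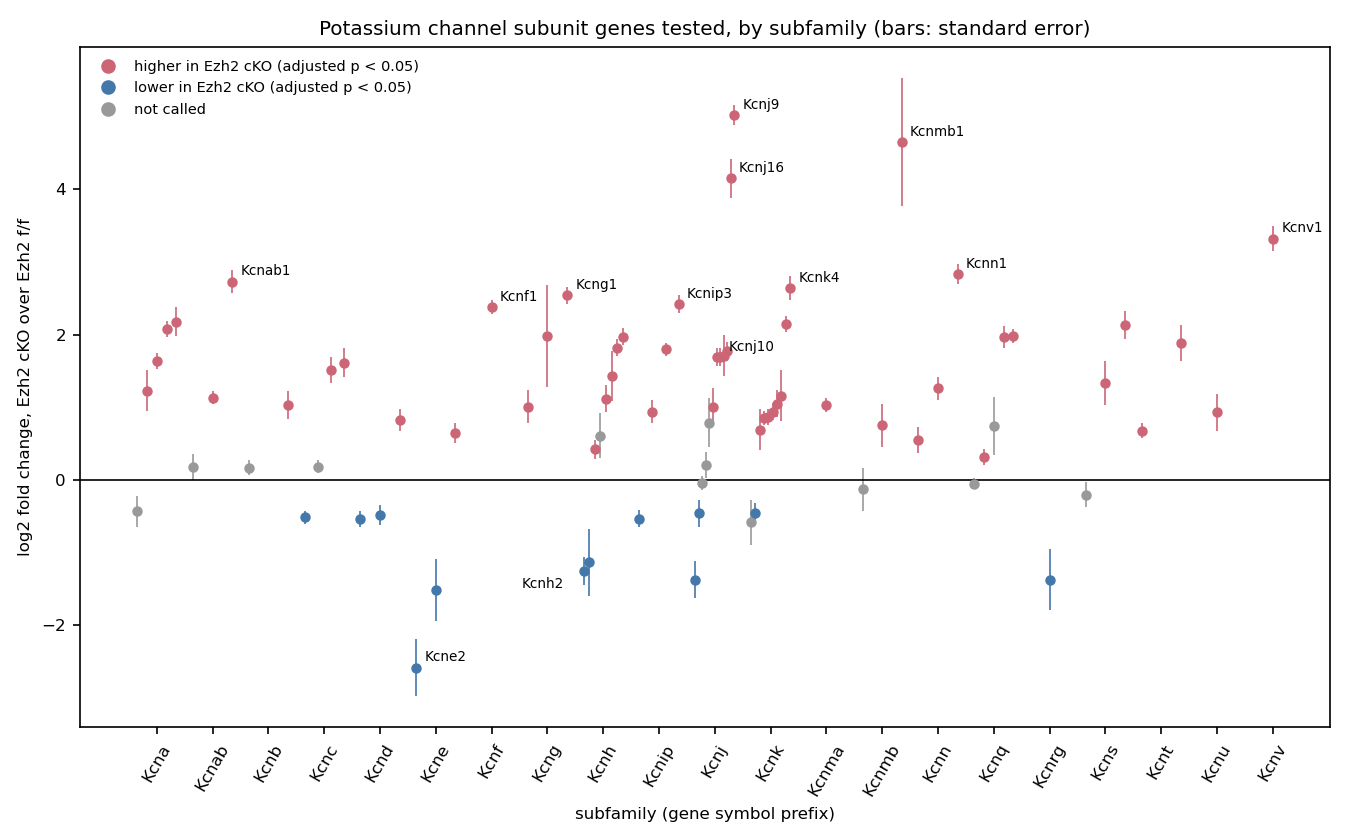
Log2 fold change, Ezh2 cKO over Ezh2 f/f, of the 78 tested potassium channel subunit genes by subfamily, with bars for the standard error and colours for genes called higher (53), lower (12) or not called (13) by edgeR. Kcnj9 stands at 5.02 and Kcnj16 at 4.15, and the Kcne subfamily holds the most negative value, Kcne2 at -2.58. The plotted value of Kcnmb1 rests on 1 and 0 control counts and depends on the prior count of the fit.

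**Figure D3:**
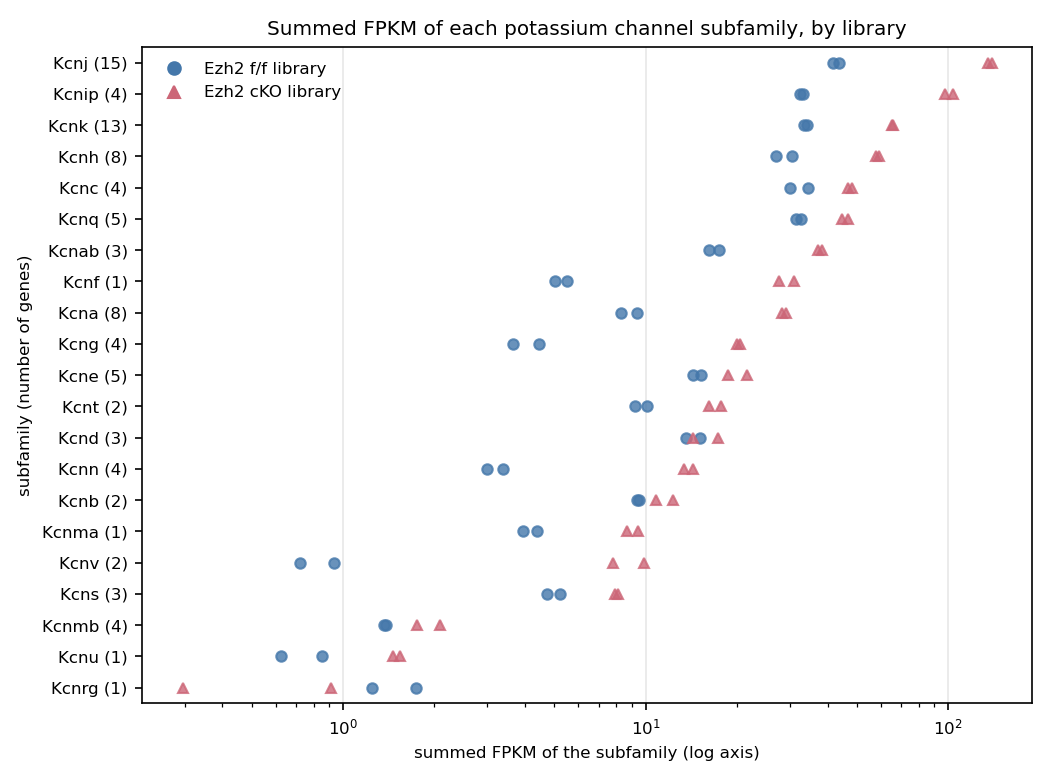
Summed FPKM (log axis) of each subfamily, with the number of genes in brackets, in the 2 Ezh2 f/f libraries (circles) and the 2 Ezh2 cKO libraries (triangles). The Kcnj sum went from 43.4 and 41.7 to 139 and 135, while the Kcnd values of the groups overlapped.

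The inward rectifiers were the largest subfamily, with 15 genes, of which 12 were tested, 7 were higher and 2 lower. Kcnj9 encodes a subunit of the G protein-gated channels that open when inhibitory receptors of neurons are activated. It had 65 and 66 counts in the control libraries against 2482 and 2068 in Ezh2 cKO, a 32.5-fold difference (log2 fold change 5.02, SE 0.14, edgeR adjusted p = 1.26e-11). It had the smallest p of all the potassium channel genes and moved from rank 50 to rank 5 of the 93 genes in FPKM. Kcnj10 encodes the inward rectifier through which astrocytes take up potassium, and it had 627 and 683 counts in the control libraries against 2496 and 2042 in Ezh2 cKO (log2 fold change 1.69, SE 0.12, edgeR adjusted p = 2.37e-08). Mean levels were 40.1 ± 4.78 CPM (SD, n = 2) in the control libraries and 130 ± 16.8 CPM (SD, n = 2) in Ezh2 cKO. Kcnj16, whose product joins that of Kcnj10 in heteromeric channels, had 9 and 14 counts in the control libraries against 234 and 207 in Ezh2 cKO (log2 fold change 4.15, SE 0.27, edgeR adjusted p = 1.20e-08). In each of these genes both Ezh2 cKO libraries lay far above both Ezh2 f/f libraries, and the ratio of Kcnj10 to Kcnj16 in FPKM went from 50.7 and 35.5 to 7.76 and 7.18. Kcnj10 was 7.65 and 8.21 times as abundant as Kcnj9 in Ezh2 f/f and 0.798 and 0.783 times in Ezh2 cKO.

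Kcnj9 (ENSMUSG00000038026) and Kcnj10 (ENSMUSG00000044708) are neighbours that point away from each other. In the deposited coordinates, whose build is not named in the table, Kcnj9 spans 172148068 to 172156885 of chromosome 1, minus strand, and Kcnj10 spans 172168777 to 172201652, plus strand, with 11.9 kb between them. Their promoters are printed because they are the pair of adjacent genes that both rose by more than 1.5 on the log2 scale, and that of Kcnj4, the most abundant inward rectifier, for contrast in its CG content. The sequences are RefSeq's on GRCm38.p6, from 250 bases before to 50 bases after the start, 5′ to 3′ on the gene's own strand, with CG dinucleotides, the sites of DNA methylation that also mark CpG islands, in capitals.
Kcnj9, chr1:172329273-172329572, minus strand: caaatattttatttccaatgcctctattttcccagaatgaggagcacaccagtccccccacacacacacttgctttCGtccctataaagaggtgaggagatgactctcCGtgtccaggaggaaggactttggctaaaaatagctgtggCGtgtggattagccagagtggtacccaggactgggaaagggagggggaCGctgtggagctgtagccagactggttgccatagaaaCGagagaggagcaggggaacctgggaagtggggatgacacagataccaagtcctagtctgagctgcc
Kcnj10, chr1:172340960-172341259, plus strand: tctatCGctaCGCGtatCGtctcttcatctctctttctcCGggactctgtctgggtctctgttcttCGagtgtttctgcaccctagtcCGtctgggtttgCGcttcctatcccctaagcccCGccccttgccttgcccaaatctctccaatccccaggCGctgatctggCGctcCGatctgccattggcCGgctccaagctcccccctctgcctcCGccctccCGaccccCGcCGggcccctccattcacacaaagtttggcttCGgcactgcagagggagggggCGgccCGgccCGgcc
Kcnj4, chr15:79505192-79505491, minus strand: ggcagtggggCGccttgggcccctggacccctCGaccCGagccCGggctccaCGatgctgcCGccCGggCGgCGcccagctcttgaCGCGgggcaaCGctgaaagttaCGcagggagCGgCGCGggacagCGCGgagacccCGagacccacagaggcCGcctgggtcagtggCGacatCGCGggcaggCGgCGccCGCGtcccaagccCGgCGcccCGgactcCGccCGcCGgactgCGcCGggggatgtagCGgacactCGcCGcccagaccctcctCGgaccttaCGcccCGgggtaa
The Kcnj9 window held 5 CG dinucleotides, against 21 in that of Kcnj10 and 41 in that of Kcnj4. The pair was chosen because both genes rose, so these counts are a description. A promoter was matched for 68 of the 93 genes, with a median of 14 CG (the window with the most was used where a gene had several) and 20 or more in 38.2%. The 12164 tested genes with a promoter had a median of 21 and 20 or more in 55.2%. The 68 genes include 13 that were not tested, whose CG counts were low, so these sets are not alike. Genes that were higher in Ezh2 cKO had a median of 17 and 20 or more in 41.0% (39 genes), and those that were lower had a median of 18 and 20 or more in 33.3% (9 genes). The median was 22 for genes that were not called (7 genes) and 6 for those not tested (13 genes). No test was made of the CG count. A CG count was read on 1 strand, since CG reads the same on both.

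The other G protein-gated subunits had smaller fold changes. Kcnj3 had 180 and 200 counts in the control libraries against 665 and 722 in Ezh2 cKO (log2 fold change 1.77, SE 0.13, edgeR adjusted p = 5.38e-08), and Kcnj6 had 38 and 32 counts in the control libraries against 75 and 75 in Ezh2 cKO (log2 fold change 1.01). Kcnj5 had 22 and 39 counts in the control libraries against 65 and 48 in Ezh2 cKO and was not called (log2 fold change 0.79, edgeR adjusted p = 0.0513). Kcnj9 thus went from 0.439 and 0.401 times the FPKM of Kcnj3 to 4.54 and 3.48 times. Among the strong rectifiers of excitable cells, Kcnj4 was the most abundant inward rectifier in both groups, with 634 and 446 counts in the control libraries against 1823 and 1886 in Ezh2 cKO (log2 fold change 1.69, SE 0.12, edgeR adjusted p = 2.73e-08), and Kcnj12 rose by 1.71. Kcnj2, of the same class, had 153 and 143 counts in the control libraries against 120 and 109 in Ezh2 cKO (log2 fold change -0.46, edgeR adjusted p = 0.0338), and its call was lost when any 1 of the 4 libraries was left out. It lies 38.2 kb from Kcnj16 on chromosome 11, and the adjacent genes went in opposite directions. Kcnj14, of the same class, had 102 and 87 counts in the control libraries against 44 and 34 in Ezh2 cKO (log2 fold change -1.37, SE 0.25, edgeR adjusted p = 2.30e-04). The pore subunits of channels closed by ATP, Kcnj11 (log2 fold change -0.04) and Kcnj8 (0.21), were not called, and neither was Abcc8 (-0.10), which encodes the sulfonylurea receptor that joins Kcnj11.

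**Figure D4:**
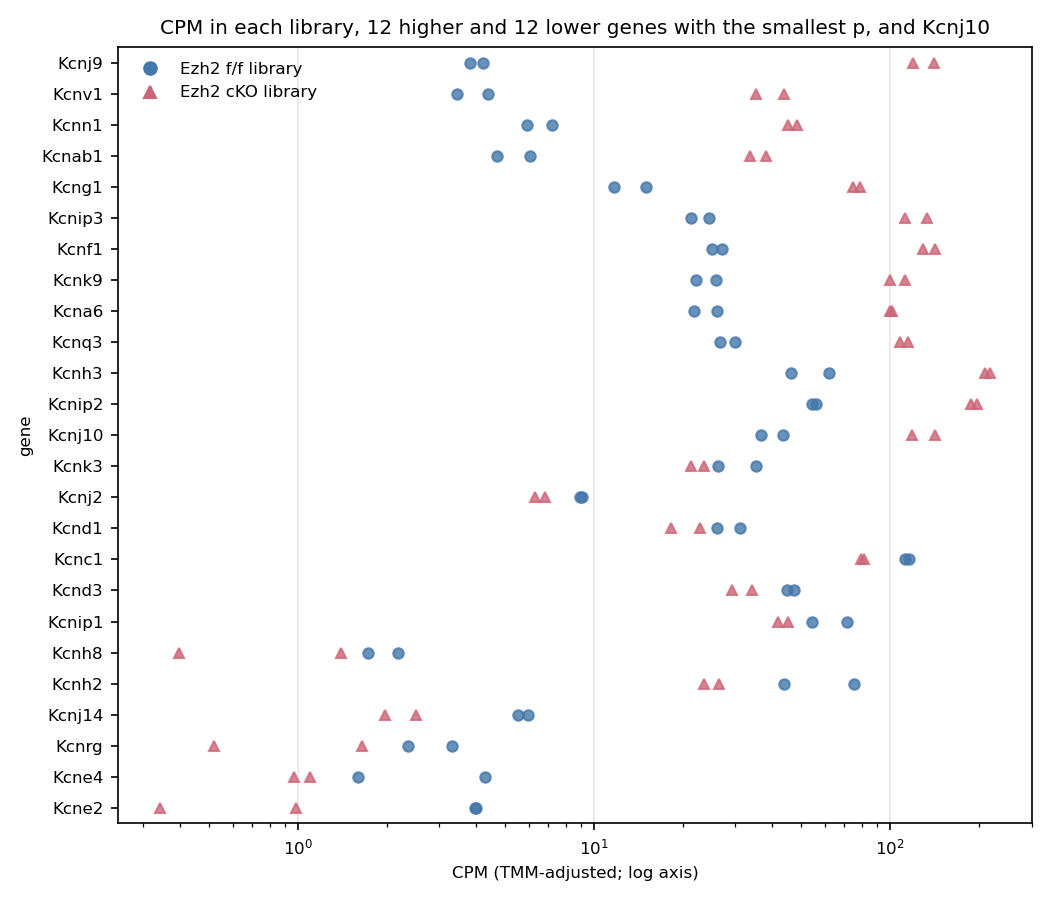
CPM (log axis) in each Ezh2 f/f (circles) and Ezh2 cKO library (triangles) of the 12 higher and 12 lower potassium channel subunit genes with the smallest p, and of Kcnj10. Higher genes, at the top, have wide gaps between the groups, with Kcnj9 at 3.81 and 4.2 against 141 and 119 CPM, while several lower genes have gaps no wider than the spread within a group.

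Voltage-gated Kcna genes, whose channels sit along axons and delay repetitive firing, had 4 of 5 tested genes higher and 0 lower. Kcna6 was the most abundant in both groups, with 370 and 409 counts in the control libraries against 1782 and 1731 in Ezh2 cKO (log2 fold change 2.08, SE 0.11, edgeR adjusted p = 1.42e-09). Kcna4 had 53 and 41 counts in the control libraries against 228 and 227 in Ezh2 cKO, which is 2.18 on the log2 scale, Kcna2 rose by 1.64 and Kcna1 by 1.23. Kcna5, which lies beside Kcna1 and Kcna6 on chromosome 6, had 96 and 104 counts in the control libraries against 78 and 80 in Ezh2 cKO and was not called (log2 fold change -0.43, edgeR adjusted p = 0.0855). The cytoplasmic beta subunits that bind these channels rose as well, apart from Kcnab3, which was not called (0.18). Kcnab2 had 1558 and 1576 counts in the control libraries against 3777 and 3528 in Ezh2 cKO (log2 fold change 1.13), and Kcnab1 had 104 and 74 counts in the control libraries against 595 and 658 in Ezh2 cKO (log2 fold change 2.73, SE 0.16, edgeR adjusted p = 4.32e-09). Kcnab2 remained the most abundant of the beta subunits, though its ratio to Kcnab1 in FPKM went from 24.0 and 34.1 to 10.2 and 8.59.

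Kcnb genes encode delayed rectifier channels of neuronal cell bodies. Kcnb2 had 96 and 75 counts in the control libraries against 169 and 203 in Ezh2 cKO (log2 fold change 1.03). Of the silent subunits that join Kcnb channels, all those tested rose except Kcns1. Kcnv1 had 75 and 54 counts in the control libraries against 620 and 755 in Ezh2 cKO (log2 fold change 3.32, SE 0.17, edgeR adjusted p = 1.57e-09), Kcng1 had 200 and 234 counts in the control libraries against 1394 and 1299 in Ezh2 cKO (log2 fold change 2.54, SE 0.12, edgeR adjusted p = 7.11e-10), and Kcnf1 had 461 and 393 counts in the control libraries against 2282 and 2466 in Ezh2 cKO (log2 fold change 2.38, SE 0.10, edgeR adjusted p = 4.22e-10). Both Ezh2 cKO libraries lay above both Ezh2 f/f libraries in each of these genes. Kcns2 had 60 and 77 counts in the control libraries against 322 and 319 in Ezh2 cKO (log2 fold change 2.13), Kcns3 rose by 1.33 and Kcng2 by 1.01. Kcns1, the most abundant Kcns gene over the 4 libraries, was not called (-0.20). Kcng4 had 1 and 12 counts in the control libraries against 42 and 14 in Ezh2 cKO, and its call (1.98, edgeR adjusted p = 0.0215) was lost without either Ezh2 f/f replicate 1 or Ezh2 cKO replicate 1. Of the proteins that anchor or accompany Kcnb channels, Amigo1 rose by 0.85, while Vapa and Vapb (both 0.10) were not called.

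Kcnc genes, whose channels close fast and allow rapid firing, went in different directions. Kcnc1 had 1916 and 1826 counts in the control libraries against 1436 and 1376 in Ezh2 cKO (log2 fold change -0.51, SE 0.09, edgeR adjusted p = 2.21e-04). Kcnc4 had 284 and 503 counts in the control libraries against 1382 and 1206 in Ezh2 cKO (log2 fold change 1.61, SE 0.20, edgeR adjusted p = 6.23e-06), and the value became 1.21 when Ezh2 f/f replicate 1 was left out and 2.14 when replicate 2 was. Kcnc2 rose by 1.51. The ratio of Kcnc1 to Kcnc4 in FPKM was 2.74 and 1.47 in the control libraries against 0.422 and 0.463 in Ezh2 cKO, so the more abundant of the pair changed.

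The Kcnd genes encode the pores of the transient A-type current of dendrites. Kcnd2 had 411 and 369 counts in the control libraries against 612 and 864 in Ezh2 cKO (log2 fold change 0.83, SE 0.15, edgeR adjusted p = 1.94e-04), Kcnd3 had 808 and 703 counts in the control libraries against 517 and 593 in Ezh2 cKO (log2 fold change -0.53, SE 0.11, edgeR adjusted p = 6.03e-04), and Kcnd1 had 532 and 408 counts in the control libraries against 402 and 313 in Ezh2 cKO (log2 fold change -0.48, SE 0.14, edgeR adjusted p = 0.00841). The Ezh2 cKO libraries were higher for Kcnd2 and lower for the other two. Without Ezh2 cKO replicate 2 the call of Kcnd1 was lost (-0.32) and Kcnd2 stood at 0.55. Kcnd2 went from 0.947 and 0.977 to 2.2 and 2.71 times the FPKM of Kcnd3. Calcium-binding Kcnip proteins set the surface level of these channels, and Kcnip2 was the most abundant potassium channel subunit gene in Ezh2 cKO, with 958 and 852 counts in the control libraries against 3458 and 3244 in Ezh2 cKO (log2 fold change 1.80, SE 0.09, edgeR adjusted p = 1.52e-09). Kcnip3 had 416 and 335 counts in the control libraries against 2337 and 1943 in Ezh2 cKO (log2 fold change 2.42, SE 0.12, edgeR adjusted p = 7.55e-10), and Kcnip4 rose by 0.94. Kcnip1 had 933 and 1118 counts in the control libraries against 799 and 721 in Ezh2 cKO (log2 fold change -0.53, SE 0.12, edgeR adjusted p = 0.00123), or -0.35 without Ezh2 f/f replicate 2. Kcnip3 went from 0.793 and 0.533 to 5.2 and 4.79 times the FPKM of Kcnip1. The transmembrane partners of Kcnd channels, Dpp6 (0.27) and Dpp10 (1.62), were both higher.

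Kcnh genes, the ether-a-go-go family, had 5 of 8 higher and 2 lower. Kcnh3 had 1064 and 725 counts in the control libraries against 3844 and 3615 in Ezh2 cKO (log2 fold change 1.97, SE 0.12, edgeR adjusted p = 8.84e-09) and Kcnh1 rose by 1.82, with smaller rises in Kcnh5 (1.43), Kcnh7 (1.12) and Kcnh4 (0.42). Kcnh6 was not called (0.61), and the call of Kcnh4 was lost without Ezh2 cKO replicate 2. Kcnh3 overlaps Mcrs1 on the other strand, which had 4726 and 4246 counts in the control libraries against 2816 and 2700, a difference in the other direction. Kcnh2, known from cardiac repolarisation, had 745 and 1181 counts in the control libraries against 414 and 458 in Ezh2 cKO (log2 fold change -1.25, SE 0.19, edgeR adjusted p = 4.08e-05). Its Ezh2 f/f libraries were far apart, and the value became -1.59 when replicate 1 of them was left out and -0.82 when replicate 2 was. Kcnh8 had 37 and 27 counts in the control libraries against 7 and 24 in Ezh2 cKO (log2 fold change -1.13, edgeR adjusted p = 0.0441), with the Ezh2 cKO libraries apart. The value was -0.49 without replicate 1 of Ezh2 cKO and -2.27 without replicate 2, and the call was lost without replicate 1 of either group. The control libraries differed on which of Kcnh2 and Kcnh3 had the higher FPKM (ratio of Kcnh2 to Kcnh3 0.832 and 1.94). In both Ezh2 cKO libraries Kcnh3 was far above Kcnh2 (0.128 and 0.151).

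Kcnq genes carry the M current, which is shut by muscarinic receptors and limits firing. Kcnq3 had 509 and 419 counts in the control libraries against 1906 and 1991 in Ezh2 cKO (log2 fold change 1.98, SE 0.10, edgeR adjusted p = 1.47e-09). Kcnq5 rose by 1.97, and Kcnq1 was not called (0.74). Ank3 and Sptbn4, which hold Kcnq channels at the axon initial segment, rose by 0.68 and 0.28.

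Tandem-pore Kcnk genes, which set the resting leak, had 8 of 10 tested genes higher and 1 lower. Kcnk9 had 441 and 348 counts in the control libraries against 1978 and 1727 in Ezh2 cKO (log2 fold change 2.14, SE 0.11, edgeR adjusted p = 1.42e-09) and Kcnk4 had 64 and 53 counts in the control libraries against 402 and 378 in Ezh2 cKO (log2 fold change 2.64, SE 0.17, edgeR adjusted p = 1.09e-08). Kcnk1, with the highest mean FPKM of the subfamily over the 4 libraries, had 320 and 284 counts in the control libraries against 626 and 613 in Ezh2 cKO (log2 fold change 0.94). In the control libraries the FPKM of Kcnk1 (8.17 and 7.81) and of Kcnk3 (6.43 and 8.55) overlapped. The acid-sensitive channels split, since Kcnk9 rose and Kcnk3 had 448 and 553 counts in the control libraries against 412 and 367 in Ezh2 cKO (log2 fold change -0.46, SE 0.14, edgeR adjusted p = 0.011), though Kcnk3 was not called without Ezh2 f/f replicate 2 (-0.25) or without either Ezh2 cKO library. Kcnk9 went from 0.318 and 0.203 to 1.55 and 1.52 times the FPKM of Kcnk3. Kcnk2 (0.85), Kcnk10 (0.86), Kcnk12 (1.05) and Kcnk13 (1.16) were also higher, Kcnk13 not without Ezh2 cKO replicate 2. Kcnk6 had 34 and 30 counts in the control libraries against 54 and 56 in Ezh2 cKO (log2 fold change 0.69, edgeR adjusted p = 0.0418), a call lost when any 1 library was left out, and Kcnk5 was not called (-0.58).

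Among channels gated by calcium or sodium, all 3 tested Kcnn genes were higher. Kcnn1, of the small-conductance channels behind the afterhyperpolarisation, had 123 and 93 counts in the control libraries against 853 and 780 in Ezh2 cKO (log2 fold change 2.83, SE 0.14, edgeR adjusted p = 9.21e-10), while Kcnn3 rose by 1.26 and Kcnn2 by 0.55, a call lost without Ezh2 cKO replicate 1. Kcnma1, the pore of the large-conductance channel, had 1307 and 1088 counts in the control libraries against 2548 and 2665 in Ezh2 cKO (log2 fold change 1.03, SE 0.10, edgeR adjusted p = 3.91e-07). Its beta subunit Kcnmb1 had 1 and 0 counts in the control libraries against 20 and 13 in Ezh2 cKO. The observed Ezh2 cKO mean was 5.14 times the level of 3 counts per library, the limit taken for Ezh2 f/f. Kcnmb1 lies within Kcnip1 on the other strand. Kcnmb2 had 39 and 27 counts in the control libraries against 68 and 50 in Ezh2 cKO (log2 fold change 0.75), a call that held in 1 of the 4 fits that left out a library, and Kcnmb4 was not called (-0.13). Kcnmb3 had 2 and 6 counts in the control libraries against 0 and 0 in Ezh2 cKO, and no fold is given, since Ezh2 f/f replicate 1 was itself under 3 counts. Lrrc26 (1.94) and Lrrc55 (1.38), gamma subunits of the same channel, were higher. The sodium-activated genes were higher too, with 1478 and 1522 counts in the control libraries against 2752 and 2383 in Ezh2 cKO for Kcnt1 (log2 fold change 0.68, SE 0.10, edgeR adjusted p = 3.69e-05) and 41 and 26 counts in the control libraries against 122 and 140 in Ezh2 cKO for Kcnt2 (log2 fold change 1.88), as was Kcnu1, the sperm channel gene, with 56 and 38 counts in the control libraries against 100 and 91 in Ezh2 cKO (0.93).

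The Kcne genes, single-pass auxiliary subunits, held the largest falls. Kcne2, which is abundant in choroid plexus, had 68 and 62 counts in the control libraries against 6 and 17 in Ezh2 cKO (log2 fold change -2.58, SE 0.39, edgeR adjusted p = 4.44e-05), and both Ezh2 cKO libraries were below both Ezh2 f/f libraries. The value was -2.0 without Ezh2 cKO replicate 1 and -3.51 without replicate 2. In the same libraries Ttr, the main secreted product of choroid plexus, had 6326 and 11598 counts in the control libraries against 5 and 12 in Ezh2 cKO. The part of choroid plexus RNA in the Kcne2 value was not tested. Kcne4 had 73 and 25 counts in the control libraries against 17 and 19 in Ezh2 cKO (log2 fold change -1.51, SE 0.43, edgeR adjusted p = 0.0067), and without Ezh2 f/f replicate 1 the value was -0.62 and was not called (edgeR adjusted p = 0.287). The call was also lost without either Ezh2 cKO library. Kcne3 had 0 and 1 counts in the control libraries against 6 and 4 in Ezh2 cKO. It was too low to be tested, and no fold is given. Kcne1l, the most abundant of the subfamily, went the other way, with 284 and 314 counts in the control libraries against 557 and 450 in Ezh2 cKO (log2 fold change 0.65, SE 0.14, edgeR adjusted p = 9.86e-04). Kcnrg, which encodes a regulator that lowers the surface level of voltage-gated channels, had 40 and 52 counts in the control libraries against 29 and 9 in Ezh2 cKO (log2 fold change -1.37, SE 0.42, edgeR adjusted p = 0.0108), and it was not called without Ezh2 cKO replicate 2, where the value was -0.77, while it was -2.42 without replicate 1.

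**Figure D5:**
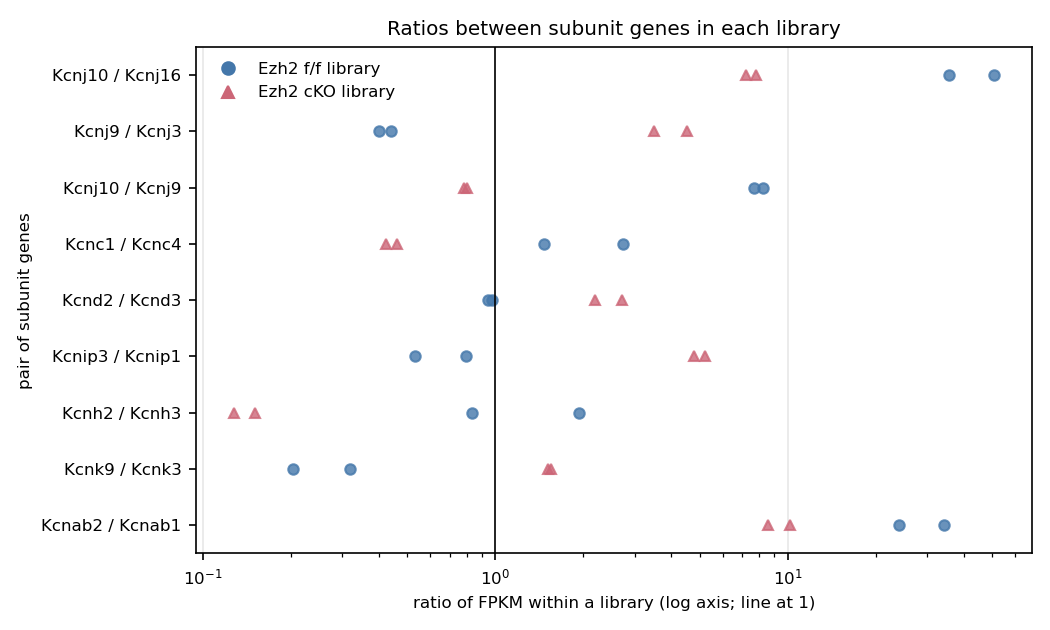
Ratio of the FPKM of the first to the second gene of the pairs of potassium channel subunit genes within each library (log axis, line at 1), with circles for Ezh2 f/f and triangles for Ezh2 cKO. The pairs were picked by hand with earlier results of these data known, several of them from genes called in opposite directions. That the ratios of the groups did not overlap in any pair is therefore only a description. Kcnj10 to Kcnj9 went from 7.65 and 8.21 to 0.798 and 0.783.

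Beyond the Kcn genes, a list of 32 genes held those for proteins that bind, anchor or regulate these channels and the 4 HCN cation channel genes. Of these 32 genes, 30 were tested, 22 were higher and 3 lower (median log2 fold change 0.72). Over all tested genes 34.7% were higher and 33.6% lower, but the list was chosen with earlier results of these data known. Lgi1 (1.97), Adam22 (1.30), Cntnap2 (0.60) and Dlg1 (0.93) of the axonal Kcna complex were higher, and Cntn2, an adhesion molecule of the same complex, fell by 2.01. Rgs7bp, which anchors the regulator of G protein signalling that speeds closure of G protein-gated channels, rose by 2.48, and Rgs7 and Gnb5 rose by 0.76 and 0.73. Of the proteins that hold Kcnj10 channels at astrocyte endfeet, Dtna (1.82) and Dmd (0.64) were higher and Dag1 (-0.36) lower. The HCN cation channels, which oppose Kcn channels near rest, had Hcn2 (0.70) and Hcn3 (0.78) higher and Hcn4 (-1.70) lower. Lrrc52 was not analysed here.

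Overlapping genes limit some of these values, since it is not stated whether counting used strand. Of the 93 genes, 36 overlap another gene in the deposited coordinates, 31 of them a gene on the other strand, and for 17 that other gene had a mean count of at least 10% of their own.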

How the data were processed

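RNA-seq was available for 2 Ezh2 f/f and 2 Ezh2 cKO libraries of GLAST-selected cortical cells at postnatal day 5. The submitters' processing notes name Bowtie2 2.2.3, TopHat2 2.0.12, HTSeq 0.6.0 and mm9. The annotation and strand setting are not given in the sources used here. The authors deposited raw counts and FPKM per library for 29224 genes. Their own comparison columns (mean signal, ratio, log2 ratio and p-values, deposited by the authors as Ezh2 f/f over Ezh2 cKO) were not used. Coordinates are printed as deposited; they differ from the GRCm38 reference and were not converted. Genes were grouped by symbol; the members and all lists were chosen with earlier results of these data known.

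Counts were filtered with edgeR 4.0.16 (filterByExpr, 16793 genes), scaled by TMM (factors between 0.967 and 1.04) and compared with the quasi-likelihood test, adjusted by Benjamini-Hochberg over all genes tested (R 4.3.3). Ezh2 cKO is the numerator of each fold change, and calls are at an adjusted p under 0.05. Log2 values are fitted; CPM uses TMM-adjusted sizes. At this depth 3 counts correspond to 0.17 to 0.191 CPM, which covers counting error only. The counts of same-group replicates differed beyond sampling noise, with a chi-square per degree of freedom of 9.24 for the control and 5.98 for the Ezh2 cKO pair, so each library was kept as a replicate. Genes were named by rule: Kcnj9 and Kcnj10, the 12 genes of each direction with the smallest p, and the highest FPKM and largest called change in each subfamily; others are named beside them, and some genes are not reported here. The tests were tried on simulated data. Alternatives were DESeq2 1.42.0, its size factors in edgeR, other filters, limma 3.58.1 on log2(FPKM + 1) or log2(FPKM + 0.1), a replicate block and leaving out each library. No permutation of 2 against 2 libraries can reach a p under 0.05.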

Additional observations from a re-analysis of the deposited data

How the results depend on the processing

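Over the alternatives, between 45 and 53 potassium channel subunit genes were higher in Ezh2 cKO, and no called gene was called in the opposite direction. The number that were lower was 12, and it was 7 with limma on log2(FPKM + 1), 7 with limma on log2(FPKM + 0.1), 3 with limma without a filter, and 7 to 10 when 1 library was left out; fewer genes are tested in the filtered limma fits. With DESeq2 there were 48 higher and 10 lower. Of 487 values for 42 named genes, 447 kept direction and side of the threshold and 40 lost a call. With the replicate block 53 genes were higher (52 of them shared, Kcnk6 lost) and 12 lower; same-numbered libraries share only a number (correlation of deviations 0.13). The filter on low counts left 15 genes untested; without it all 93 were tested, with 51 higher and 10 lower.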

Other observations

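Outside the protein-coding genes, 5 long non-coding RNAs have symbols that start with Kcn. Kcnmb4os2, an antisense RNA that overlaps Kcnmb4, had 118 and 78 counts in the control libraries against 184 and 149 in Ezh2 cKO (log2 fold change 0.68, SE 0.21, edgeR adjusted p = 0.00986), while Kcnmb4 itself was not called. Its mean count was 132.25 against 34.0 for Kcnmb4, and the unknown strand setting limits both values. Kcnq1ot1, the imprinted antisense RNA of the Kcnq1 locus, had 153 and 144 counts in the control libraries against 81 and 138 in Ezh2 cKO and was not called (log2 fold change -0.53, edgeR adjusted p = 0.0555). Kcnd3os had 7 and 6 counts against 7 and 12, and Kcnmb4os1 and Kcnab3os were at or below 4 counts in every library, so these were not tested.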
